A study of Sus scrofa with 15 samples.

Results

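The 9 receptor chains described here are those through which interferons, IL-4, IL-13 and IL-10 signal, namely IFNAR1, IFNAR2, IFNGR1, IFNGR2, IL4R, IL13RA1, IL2RG, IL10RA and IL10RB. They were chosen with earlier results of these data known, so the set is not independent of the values below. They were matched by symbol, and all 9 had a row among the 31908 Ensembl pig genes of the count table. The samples were livers of male Duroc x Large White x Landrace piglets in the growing stage, given either sterile saline (CON group) or 80 μg/kg of LPS (LPS group) into the peritoneum 4 h before sampling. Of the 6 piglets per group in the study, 3 libraries per group of input RNA (polyadenylated RNA that had not gone through the m6A antibody step) were analysed, with n = 3 per group throughout. The labels do not say that the replicates were separate animals, so p-values measure the spread between these libraries. IFNAR1 and IL4R are among the genes that the study picked out with these same samples, and their direction here is not independent evidence.

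These receptors are built from different chains that are brought together by the ligand, and the chains carry Janus kinases that phosphorylate STAT proteins. Interferon alpha and beta bind IFNAR1 with IFNAR2 and act through a complex of STAT proteins with IRF9, whereas interferon gamma is bound by IFNGR1, which needs IFNGR2 to signal. IL-4 binds IL4R, whose partner is either the common gamma chain IL2RG or IL13RA1, and signals through STAT6. IL-10 binds IL10RA, recruits IL10RB and signals through STAT3, which in macrophages restrains the response to LPS. IL10RB is also a chain of the receptors for IL-22 and interferon lambda, which act on hepatocytes.

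Total counts lay between 4348478 and 19967417 per library. LPS replicate 2 lay nearer to the CON libraries than the other LPS libraries did. Across tested genes, which are not independent replicates, its log2 CPM (counts scaled to library size with TMM factors) correlated at 0.923 to 0.945 with the CON libraries and at 0.852 to 0.907 with the LPS libraries. LPS replicates 1 and 3 correlated at 0.837 to 0.899 with the CON libraries and at 0.903 with each other, so that LPS replicate 1 was as near to LPS replicate 2 (0.907) as to LPS replicate 3. The fold change of each chain is therefore also given without LPS replicate 2. That library was singled out from these same values, and leaving out the LPS library nearest to the CON group favors larger differences. Calls made without it are a description and not independent support. The livers carried hepatocyte markers at a summed level of 80950 CPM or more. Neutrophil markers (13 of 19 in the table) summed to 61.6 to 109 CPM in the CON group and to 164 to 396 in the LPS group, without overlap, and their part in the results below was not tested. In bulk liver, fewer cells of a type and less RNA per cell cannot be told apart.

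With all 6 libraries, IL10RB, IL4R, IFNGR2 and IFNAR1 had the highest fold changes, between 2.28 and 3.75 in favor of the LPS group. IFNAR2 followed at 1.62, IFNGR1, IL2RG and IL10RA had folds between 0.908 and 1.23, and IL13RA1 had 0.715. None of the 9 chains passed edgeR's quasi-likelihood test at an adjusted p of 0.05 with a fold above 1.5, in either direction, where 0.0548% of all 12774 tested genes were called higher and 0% lower. With no adjustment of p, 4 of 9 chains were below 0.05 and higher, against 6.18% of tested genes, and 0 of 9 were below it and lower, against 6.33%. DESeq2 also called 0 of 9, with 1.91% of genes called higher and 0.995% lower. The log2 fold change was above 0 for 7 chains and below 0 for 2, with a median of 0.69 against 0.01 over all tested genes.

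The 3 LPS libraries differed widely in these chains. In LPS replicate 3, 7 of 9 chains lay above every CON library, as did 34.9% of tested genes in that library. In LPS replicate 1, 5 chains lay above and 2 below the CON libraries, where 32.1% of tested genes lay above and 37.1% below. In LPS replicate 2, 0 chains lay above the CON range, 2 lay below it and 7 lay within it, where 23.3% of tested genes lay above and 26.5% below. The median of the 9 chains relative to the CON mean was 0.55, -0.29 and 1.45 on the log2 scale in LPS replicates 1, 2 and 3. For every chain the CON and LPS values overlapped, whereas 16.3% of tested genes had groups that did not overlap (6.52% with every LPS library above the CON libraries and 9.8% with every one below).

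**Figure D1:**
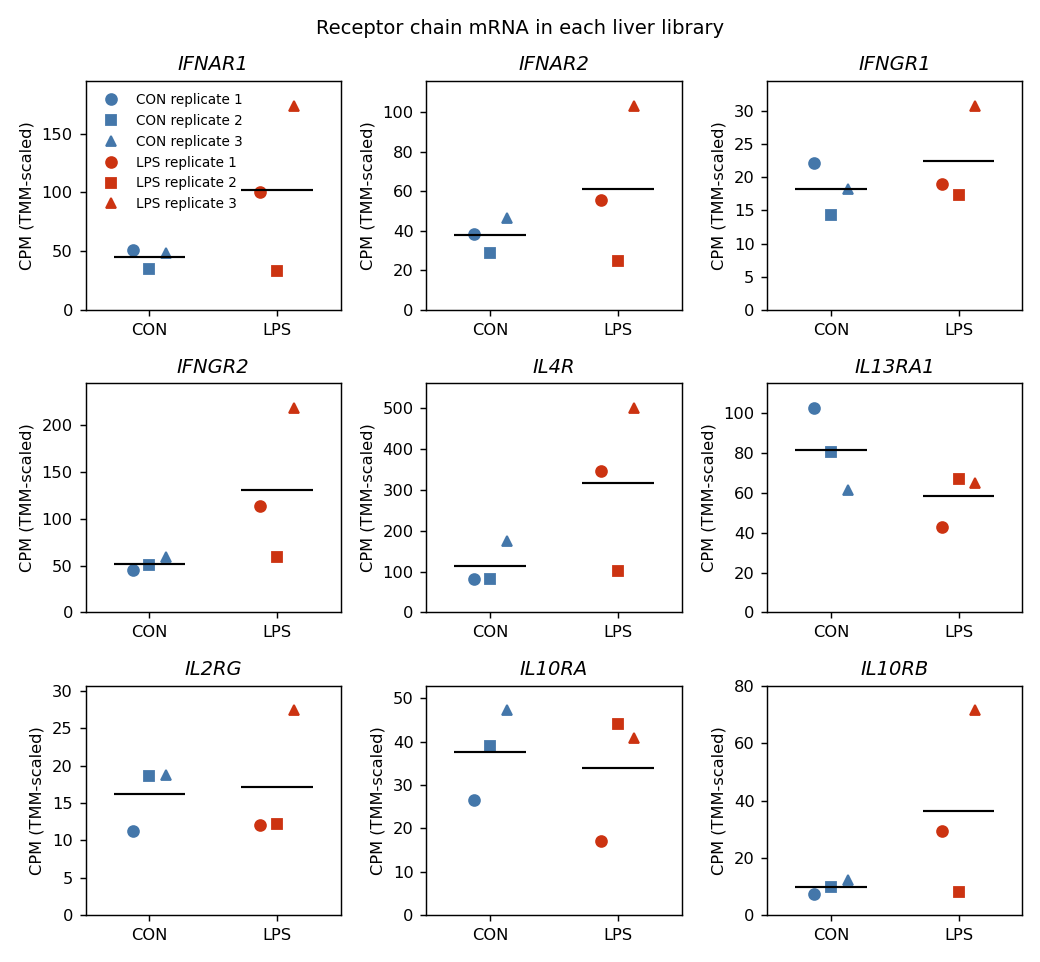
Level of each receptor chain mRNA in TMM-scaled CPM (linear axes from 0) in each of the 3 CON and 3 LPS libraries, with symbols for replicate numbers and a line at the group mean. For IFNAR1, IFNAR2, IFNGR2, IL4R and IL10RB, LPS replicates 1 and 3 lie above all CON libraries and LPS replicate 2 lies among or below them.

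Without LPS replicate 2, edgeR called 4 of the 9 chains higher, IFNAR1, IFNGR2, IL4R and IL10RB, at a background of 3.76% of genes called higher and 3.45% lower. The median of the 9 chains was then 1.08 against -0.02 over all tested genes. The 4 chains near or below 0 with all libraries stayed uncalled without it, at log2 fold changes of 0.46 for IFNGR1, 0.31 for IL2RG, -0.36 for IL10RA and -0.59 for IL13RA1. Without LPS replicate 3, the deepest library, 0 of 9 were called, at a background of 0.31% higher and 0.151% lower, and each of the 7 log2 fold changes above 0 was smaller, with that of IL2RG turned below 0. The median of the 9 chains was then 0.09 against -0.03 over all tested genes. The LPS libraries left in this fit were replicates 1 and 2, whose own medians relative to the CON mean were 0.55 and -0.29. Testing all genes without the filter on low counts called 3 chains higher (IFNGR2, IL4R and IL10RB), at a background of 2.28% higher and 1.48% lower.

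**Figure D2:**
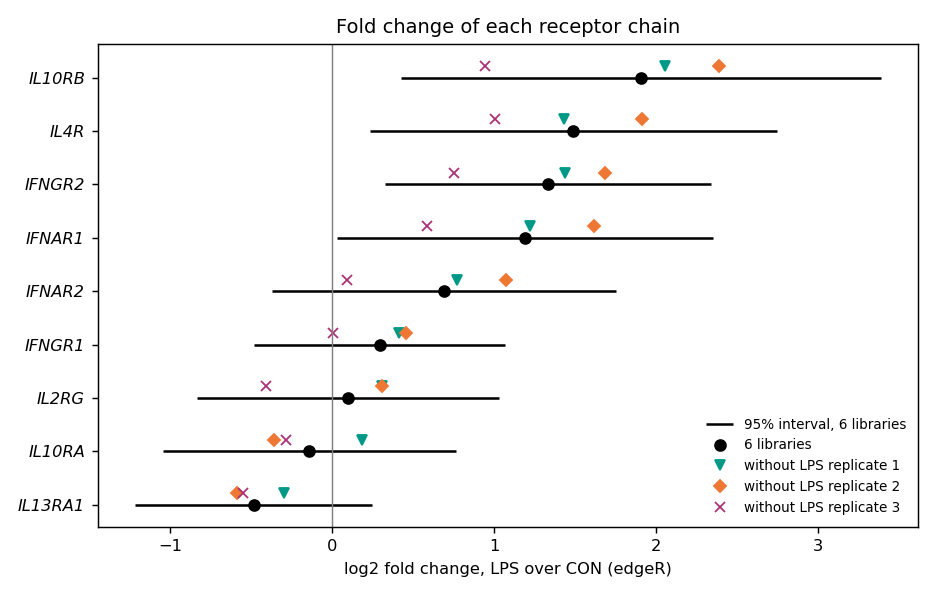
Log2 fold change of LPS over CON (edgeR, horizontal axis) for each receptor chain, with all 6 libraries (points, with 95% intervals as lines) and without each LPS replicate in turn (other symbols). The intervals of IL10RB, IL4R, IFNGR2 and IFNAR1 lie above 0 before adjustment, and leaving out LPS replicate 3 brings IL10RB from 1.91 to 0.94 whereas leaving out LPS replicate 2 brings it to 2.39.

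Both chains of the type I interferon receptor had higher means in the LPS group, IFNAR1 more than IFNAR2, and neither passed the adjusted test. IFNAR1 (ENSSSCG00000033115, chromosome 13 from 196925704 to 196952239, plus strand, 12 exon blocks), the chain that carries TYK2, had 51.1, 34.7 and 48.7 CPM in CON replicates 1, 2 and 3 and 100.1, 32.9 and 173.8 CPM in LPS replicates 1, 2 and 3. LPS replicates 1 and 3 were at 2.23 and 3.88 times the CON mean, while LPS replicate 2 was below every CON library. The group levels were 44.8 ± 8.86 and 102.3 ± 70.5 CPM (mean ± SD), a log2 fold change of 1.19 (SE 0.52, 95% interval 0.03 to 2.35, edgeR adjusted p = 0.388). It was 1.62 with LPS replicate 2 left out (edgeR adjusted p = 0.0248) and 0.59 with LPS replicate 3 left out.

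IFNAR2 (ENSSSCG00000036556, chromosome 13 from 196801998 to 196852637, plus strand, 9 exon blocks), the chain with the higher affinity for type I interferon, had 38.6, 28.8 and 46.4 CPM in the CON libraries and 55.6, 24.5 and 103.4 CPM in the LPS libraries. Its order among the LPS libraries was that of IFNAR1, with a smaller gap to the CON group. The log2 fold change was 0.69 (SE 0.47, 95% interval -0.37 to 1.75, edgeR adjusted p = 0.586). It became 0.09 without LPS replicate 3 and 1.08 without LPS replicate 2 (edgeR adjusted p = 0.109). A gene without a symbol on the minus strand, ENSSSCG00000041300, lies inside IFNAR2 without sharing exon bases. It had 5.01, 4.69 and 5.14 CPM in the CON libraries and 8.72, 2.95 and 12.6 CPM in the LPS libraries. Whether reads were counted by strand was not given in the sources used here.

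The chains of the interferon gamma receptor differed from each other, with a fold of 2.52 for IFNGR2 and 1.23 for IFNGR1. IFNGR2 (ENSSSCG00000034378, chromosome 13 from 197007303 to 197035604, plus strand, 8 exon blocks), the signaling chain that brings JAK2, had 45.5, 50.6 and 59.3 CPM in the CON libraries and 113.8, 59.2 and 218.3 CPM in the LPS libraries. Only CON replicate 3 lay above LPS replicate 2, and by little. The log2 fold change was 1.33 (SE 0.45, 95% interval 0.33 to 2.34, edgeR adjusted p = 0.274), 1.69 without LPS replicate 2 (edgeR adjusted p = 0.0220) and 0.76 without LPS replicate 3. IFNGR1 (ENSSSCG00000004156, chromosome 1 from 27037165 to 27061093, plus strand, 8 exon blocks), the ligand-binding chain, had 22.2, 14.4 and 18.3 CPM in the CON libraries and 19.0, 17.3 and 30.8 CPM in the LPS libraries. Only LPS replicate 3 lay above the CON range. The log2 fold change of 0.30 (SE 0.35, 95% interval -0.48 to 1.07, edgeR adjusted p = 0.766) was 0.00 without that library.

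Of the IL-4 and IL-13 receptor chains, IL4R had the larger mean in the LPS group and its partners did not follow it. IL4R (ENSSSCG00000007817, chromosome 3 from 19523564 to 19576544, minus strand, 12 exon blocks), the IL-4-binding chain, had 81.4, 80.8 and 175.1 CPM in the CON libraries and 346.2, 100.9 and 499.8 CPM in the LPS libraries. LPS replicates 1 and 3 were at 3.08 and 4.45 times the CON mean, and LPS replicate 2 lay between the CON libraries. The group levels of 112.4 ± 54.3 and 315.7 ± 201.2 CPM (mean ± SD) gave a log2 fold change of 1.49 (SE 0.56, 95% interval 0.23 to 2.75, edgeR adjusted p = 0.330). It was 1.92 without LPS replicate 2 (edgeR adjusted p = 0.0220) and 1.01 without LPS replicate 3.

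IL13RA1 (ENSSSCG00000012633, chromosome X from 97300466 to 97369696, plus strand, 12 exon blocks), which binds IL-13 and pairs with IL4R in the type II IL-4 receptor, had 102.5, 80.6 and 61.6 CPM in the CON libraries and 43.0, 66.8 and 65.1 CPM in the LPS libraries. LPS replicate 1 was the lowest library and the others lay within the CON range. With a log2 fold change of -0.48 (SE 0.33, 95% interval -1.22 to 0.25, edgeR adjusted p = 0.580), it stayed below 0 under each alternative, from -0.63 to -0.29. IL2RG (ENSSSCG00000012397, chromosome X from 57143570 to 57147300, minus strand, 8 exon blocks), the gamma chain shared by the receptors of several lymphocyte cytokines, had 11.3, 18.6 and 18.8 CPM in the CON libraries and 12.0, 12.1 and 27.4 CPM in the LPS libraries. Its log2 fold change was 0.10 (SE 0.42, 95% interval -0.83 to 1.03, edgeR adjusted p = 0.949). The sign turned when libraries were scaled to total counts (-0.12), a scaling that moved the median of all tested genes from 0.01 to -0.12, and without LPS replicate 3 (-0.41).

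The IL-10 receptor had the highest fold change of the 9 chains in one of its chains and a value near 0 in the other. IL10RB (ENSSSCG00000041289, chromosome 13 from 196853469 to 196884932, plus strand, 8 exon blocks), the shared signaling chain, had 7.15, 9.69 and 12.4 CPM in the CON libraries and 29.4, 7.85 and 71.6 CPM in the LPS libraries. LPS replicates 1 and 3 were at 3.03 and 7.35 times the CON mean, and LPS replicate 2 was below CON replicates 2 and 3. Raw counts of IL10RB were 80, 62 and 125 in the CON libraries and 135, 48 and 1048 in the LPS libraries. The log2 fold change was 1.91 (SE 0.66, 95% interval 0.43 to 3.39, edgeR adjusted p = 0.291), 2.39 without LPS replicate 2 (edgeR adjusted p = 0.00965) and 0.94 without LPS replicate 3, and DESeq2 gave an adjusted p of 0.0570.

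IL10RA (ENSSSCG00000015085, chromosome 9 from 45310553 to 45389323, plus strand, 8 exon blocks), the IL-10-binding chain found mainly on leukocytes, had 26.4, 39.1 and 47.2 CPM in the CON libraries and 17.01, 44.0 and 40.9 CPM in the LPS libraries. LPS replicate 1 was below the CON range and the others lay within it. The log2 fold change was -0.14 (SE 0.40, 95% interval -1.04 to 0.76, edgeR adjusted p = 0.917). It became 0.19 without LPS replicate 1. In that same library the summed markers of Kupffer cells or macrophages (1378 CPM, 13 of 15 markers in the table, LYZ at 0 in all libraries), T or NK cells (131 CPM, 13 of 17), B or plasma cells (18.1 CPM, 9 of 9) and endothelial cells (248 CPM, 10 of 12) were each the lowest of the 6 libraries, as were those of hepatocytes (80950 CPM, 17 of 18) and of cholangiocytes or stellate cells (740 CPM, 12 of 13). Over the other 5 libraries the first 4 sums ranged from 1891 to 3271, 189 to 319, 25.2 to 104 and 265 to 611 CPM. A sum follows its most abundant markers, and single markers of these lists went the other way in LPS replicate 1. HNF4A of the hepatocyte list was at 729.6 CPM (highest CON library 559.3). LYVE1 of the endothelial cell list was at 20.1 CPM (highest CON library 16.3). Nor were all lists low in LPS replicate 1. Its neutrophil markers summed to 222 CPM (highest CON library 109) and its red blood cell or platelet markers to 232 CPM (highest CON library 100). Their part in the IL10RA value was not tested.

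Divided by exon length, so that genes can be set side by side, the chains fell into 3 ranges in the CON group. IL4R (21.99 ± 10.6 CPM per kb of exon, mean ± SD), IL13RA1 (19.2 ± 4.83) and IFNGR2 (16.3 ± 2.19) were highest, and the lowest IFNGR2 value was above the highest IL10RA value. IL10RA (11.1 ± 3.09), IL2RG (10.7 ± 2.84), IFNAR2 (9.87 ± 2.30) and IFNAR1 (9.60 ± 1.898) followed, each overlapping its neighbors. IL10RB (4.52 ± 1.21) and IFNGR1 (3.50 ± 0.75) were lowest, and IL10RB did not overlap IFNAR1.

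In the LPS group the order of mean levels was IL4R (61.7 ± 39.3 CPM per kb), IFNGR2 (40.9 ± 25.4), IFNAR1 (21.9 ± 15.1), IL10RB (16.8 ± 15.0), IFNAR2 (15.9 ± 10.4), IL13RA1 (13.7 ± 3.14), IL2RG (11.3 ± 5.85), IL10RA (10.1 ± 4.38) and IFNGR1 (4.29 ± 1.41). Every neighbor in this order overlapped the next. IFNGR1 was the lowest of the 9 by mean in both groups.

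**Figure D3:**
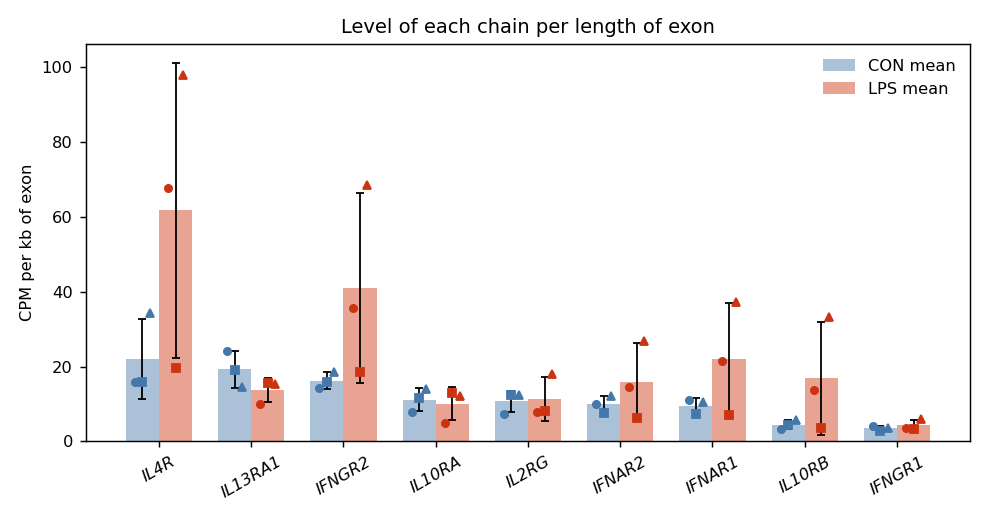
Level of each receptor chain in CPM per kb of exon (linear axis from 0), with bars for the mean of 3 CON and 3 LPS libraries, error bars for 1 SD and points for single libraries (circle, square and triangle for replicates 1, 2 and 3). IL4R is highest by mean in both groups, and the SD bars of the LPS group are wide for IL4R (39.3) and IFNGR2 (25.4) and narrow for IL13RA1 (3.14).

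Ratios of 2 chains within a library do not depend on how libraries are scaled. For 5 such pairs an exact two-sided permutation test over the 6 libraries was used, whose smallest possible p is 0.1, so no pair could pass 0.05. IFNAR1 over IFNAR2 was the only pair of these 5 whose groups did not overlap. Its count ratios were 1.32, 1.21 and 1.05 in the CON libraries and 1.80, 1.34 and 1.68 in the LPS libraries, a difference of 0.42 on the log2 scale (exact permutation p = 0.1, adjusted over the 5 pairs 0.25). LPS replicate 2, whose IFNAR1 and IFNAR2 levels were both below the CON range, was barely above the highest CON library in this ratio. It was at 1.339, from 201 and 150 counts, against 1.324 in CON replicate 1, from 572 and 432 counts. Whether this gap exceeds counting error was not tested.

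IL10RA over IL10RB varied little between the CON libraries and split the LPS group. The count ratios were 3.68, 4.01 and 3.81 in the CON libraries, an SD of 0.06 on the log2 scale, and 0.579, 5.56 and 0.572 in the LPS libraries, an SD of 1.89. With 80, 62 and 125 counts of IL10RB in the CON libraries, counting error alone could spread these ratios more widely. The narrow CON range therefore does not show that the ratio is constant. Per length of exon the ligand-binding chain was at 2.36 to 2.58 times the shared chain in the CON libraries and at 0.369, 3.58 and 0.365 times in LPS replicates 1, 2 and 3. The order of the chains was therefore inverted in LPS replicates 1 and 3 and not in LPS replicate 2. The mean difference of -1.64 on the log2 scale had an exact permutation p of 0.4 (0.4 adjusted over the 5 pairs).

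In the 3 remaining pairs the groups overlapped through LPS replicate 2, which lay within the CON range. IFNGR1 over IFNGR2 was 0.488, 0.285 and 0.309 in the CON libraries and 0.168, 0.294 and 0.141 in the LPS libraries, a log2 difference of -0.88. IL4R over IL2RG was 7.21, 4.33 and 9.30 in the CON libraries and 28.6, 8.29 and 18.2 in the LPS libraries, a log2 difference of 1.30. IL4R over IL13RA1 was 0.794, 1.00 and 2.84 in the CON libraries and 8.04, 1.51 and 7.67 in the LPS libraries, a log2 difference of 1.79. Each of these 3 had an exact permutation p of 0.2 (0.25 adjusted over the 5 pairs).

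**Figure D4:**
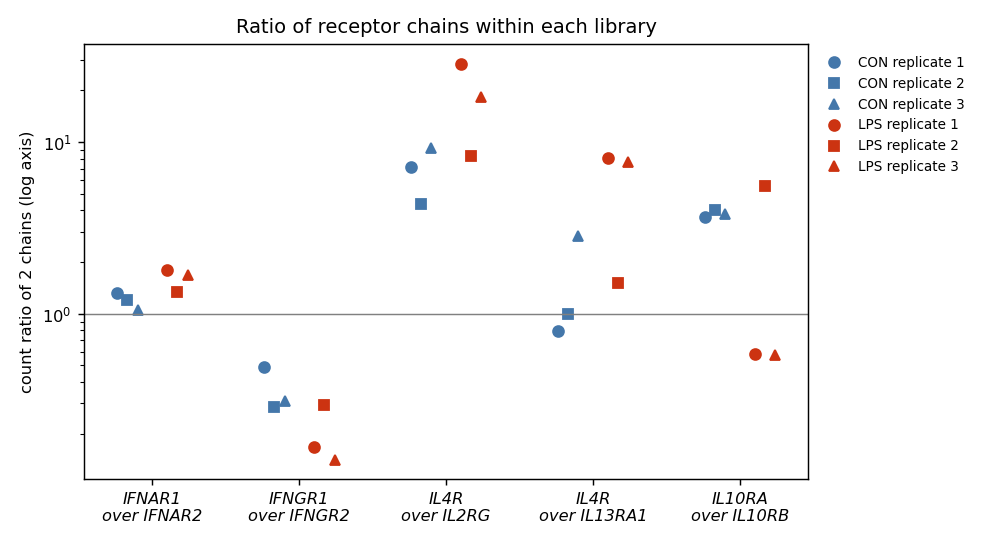
Ratio of the counts of 2 receptor chains within each library (log axis), for 5 pairs, with CON libraries in blue and LPS libraries in red. For IFNAR1 over IFNAR2 the groups do not overlap, but LPS replicate 2 (1.339) is barely above CON replicate 1 (1.324). For IL10RA over IL10RB the CON libraries sit between 3.68 and 4.01. LPS replicates 1 and 3 are at 0.579 and 0.572 there, and LPS replicate 2 is at 5.56.

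Of the 9 chains, 4 lie next to each other on chromosome 13, all on the plus strand, in the order IFNAR2, IL10RB, IFNAR1 and IFNGR2 within 233.6 kb (chromosome 13 from 196801998 to 197035604 in the coordinates of the deposited table, for which the sources used here name no pig build). IFNAR2 ends 831 bp before IL10RB begins. Their log2 fold changes in that order were 0.69, 1.91, 1.19 and 1.33, and 3 of the 4 are among the 4 chains called without LPS replicate 2. The fourth called chain, IL4R, is on chromosome 3. The stretch holds 5 other genes, none with a symbol in the table of names used here. ENSSSCG00000041300, described with IFNAR2, had a log2 fold change of 0.72 (SE 0.50, edgeR adjusted p = 0.589). The other 4 fell below the filter, and of these ENSSSCG00000048572, on the minus strand before IFNGR2, had 6, 0 and 7 counts in the CON libraries and 7, 4 and 88 in the LPS libraries.

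IFNGR1 and IL4R also have relatives nearby. IFNGR1 is followed on chromosome 1 by IL22RA2, 12.8 kb away, which encodes a soluble binding protein for IL-22 and had 8 counts in all libraries together, and by IL20RA, 76.5 kb away. IL4R is next to IL21R, 34.4 kb away with no gene between them, the chain that pairs with IL2RG to bind IL-21. IL21R had 0.804, 4.84 and 4.35 CPM in the CON libraries and 5.45, 4.25 and 17.6 CPM in the LPS libraries (log2 fold change 1.5, SE 0.72, edgeR adjusted p = 0.435). IL21R and IL22RA2 were named for their position after their values were known.

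Transcripts of the ligands were scarce in these livers. Of 22 ligand genes listed, 6 had no identifier, 13 fell below the filter and 3 were tested, with 0 called. IL4 had 0 counts in every library, which allows up to 3 counts by counting error alone, and IFNB1, encoding interferon beta, had 1 count in all. IFNG had 10, 6 and 8 counts in the CON libraries and 0, 6 and 4 in the LPS libraries, and IL13 had 6 counts in CON replicate 2, 9 in LPS replicate 3 and 0 elsewhere. At these depths a difference in these ligands was not detectable. IL10 was tested, at 1.16, 1.72 and 3.46 CPM in the CON libraries and 1.53, 2.45 and 4.301 CPM in the LPS libraries (log2 fold change 0.43, SE 0.58, edgeR adjusted p = 0.795), so the groups overlapped. IL7, whose receptor uses IL2RG, had a log2 fold change of -0.50 (SE 0.59, edgeR adjusted p = 0.764). IL15, the third tested ligand, had 1.97, 2.19 and 1.48 CPM in the CON libraries and 1.09, 0.654 and 1.43 CPM in the LPS libraries. Its log2 fold change was -0.77 (SE 0.535, edgeR adjusted p = 0.595), on 5, 4 and 21 counts in the LPS libraries. Its groups did not overlap, and 9.8% of tested genes had every LPS library below every CON library.

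Among 13 other receptor chains that share a subunit or ligand with these 9, 8 were tested and 0 were called. At an unadjusted p below 0.05 1 was higher and 2 were lower, against 6.18% and 6.33% of all tested genes. IL2RA, the alpha chain of the IL-2 receptor that IL2RG completes, had 0.447, 1.41 and 1.19 CPM in the CON libraries and 3.49, 1.96 and 36.2 CPM in the LPS libraries (log2 fold change 3.84, SE 1.09, edgeR adjusted p = 0.221). The groups did not overlap, and most of the gap came from LPS replicate 3. Every LPS library was above every CON library in 6.52% of tested genes. IL20RA, which pairs with IL10RB for IL-26, had 19.1, 12.8 and 5.64 CPM in the CON libraries and 1.96, 4.74 and 2.39 CPM in the LPS libraries (log2 fold change -2.05, SE 0.54, edgeR adjusted p = 0.207). IL13RA2, the decoy receptor for IL-13, had 4.74, 4.37 and 2.87 CPM in the CON libraries and 0.654, 2.29 and 0.751 CPM in the LPS libraries (log2 fold change -1.71, SE 0.58, edgeR adjusted p = 0.281). In IL20RA and IL13RA2 all 3 LPS libraries lay below all CON libraries, LPS replicate 2 included, as in 9.8% of tested genes. Both were called lower without LPS replicate 2, against 3.45% of genes. IL2RA was called higher without it, against 3.76%.

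All 14 listed kinases, STATs and adaptors downstream of the chains were tested. None was called with 6 libraries or without LPS replicate 2, and their median log2 fold change was 0.08, against 0.69 for the 9 chains. Without LPS replicate 3 it was -0.10. JAK1, the kinase used by each of these 4 receptors, was the 1 gene of 14 at an unadjusted p below 0.05. Over all tested genes the shares were 6.18% higher and 6.33% lower. JAK1 had 138.1, 118.0 and 127.8 CPM in the CON libraries and 199.3, 127.6 and 519.2 CPM in the LPS libraries (log2 fold change 1.14, SE 0.49, edgeR adjusted p = 0.376). LPS replicate 2 lay within the CON range. TYK2, the kinase of IFNAR1, and STAT2 were the 2 of 14 with all 3 LPS libraries below all CON libraries, against 9.8% of all tested genes. Their log2 fold changes were -0.60 (SE 0.31, edgeR adjusted p = 0.468) and -0.54 (SE 0.28, edgeR adjusted p = 0.470).

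Of 17 negative regulators 16 were tested, with 0 called, and 4 were higher at an unadjusted p below 0.05, against 6.18% of all tested genes, and 0 lower. SOCS3, an inhibitor of cytokine receptors that STAT3 induces, had 17.5, 45.2 and 27.6 CPM in the CON libraries and 289.3, 18.8 and 626.6 CPM in the LPS libraries (log2 fold change 3.38, SE 0.98, edgeR adjusted p = 0.230). CISH, an inhibitor induced through STAT5, had a log2 fold change of 2.39 (edgeR adjusted p = 0.245), SOCS1, which blocks Janus kinases of the interferon receptors, 1.83 (0.364), and the phosphatase PTPN1 1.79 (0.316). LPS replicate 2 was within or below the CON range in each of these 4. Without it 5 of the 16 were called higher, these 4 and PTPN2, against 3.76% of genes, and without LPS replicate 3 0 were called.

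Among 33 listed interferon targets 30 were tested, 0 were called, and 24 had a log2 fold change above 0 and 6 below it, with a median of 0.61. This balance was not kept without LPS replicate 3, where 15 were above 0 and 15 below, with a median of -0.00. At an unadjusted p below 0.05 3 were higher, against 6.18% of all tested genes, and 0 lower, namely CXCL10 (log2 fold change 2.57, edgeR adjusted p = 0.326) and CXCL9 (1.9, 0.367), chemokines induced by interferon gamma, and ISG15 (2.23, 0.356), a ubiquitin-like protein. CXCL10 had 243.6, 193.4 and 167.9 CPM in the CON libraries and 543.1, 104.0 and 2940 CPM in the LPS libraries, the same order of LPS libraries as IFNAR1 and IFNGR2. Without LPS replicate 2, 4 of 30 were called higher (3.76% of all genes), these 3 and CXCL11.

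Of 13 IL-4 targets only 5 were tested, with 0 called. TGM2, a transglutaminase, had 37.9, 38.1 and 46.8 CPM in the CON libraries and 117.7, 62.3 and 151.9 CPM in the LPS libraries, without overlap (log2 fold change 1.44, SE 0.37, edgeR adjusted p = 0.200). MRC1, the mannose receptor of macrophages and a marker in the Kupffer cell list, had 49.6, 42.8 and 39.1 CPM in the CON libraries and 12.0, 29.6 and 13.9 CPM in the LPS libraries, without overlap in the other direction (log2 fold change -1.25, SE 0.39, edgeR adjusted p = 0.253). Over all tested genes, 6.52% had every LPS library above every CON library and 9.8% had every one below. CISH, in this list too, is given above. At an unadjusted p below 0.05 2 of the 5 were higher and 1 was lower, against 6.18% and 6.33% of all tested genes. Without LPS replicate 2, CISH and TGM2 were called higher and MRC1 lower, against 3.76% and 3.45% of genes. Of the 5 tested targets 4 were above 0, and MRC1 alone was below, as were 12 of 12 tested Kupffer cell or macrophage markers (median -0.51), MRC1 among them, whose part in its value was not tested.

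Of 10 IL-10 targets 9 were tested, with 0 called and a median log2 fold change of 1.14, which was 0.01 without LPS replicate 3 (5 above 0 and 4 below). At an unadjusted p below 0.05 4 were higher, SOCS3, ZFP36, which destabilizes cytokine mRNA (log2 fold change 2.70, edgeR adjusted p = 0.291), BCL3, of the IκB family (2.29, 0.263), and SBNO2, a corepressor (1.48, 0.316), and 1 was lower, FCGR1A, an IgG receptor (-1.02, 0.355). Over all tested genes these shares were 6.18% higher and 6.33% lower. SOCS3, ZFP36, BCL3 and SBNO2 were called higher without LPS replicate 2, against 3.76% of genes. Several of these targets are also induced by other cytokines, and no sample here tells the inducers apart.

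**Figure D5:**
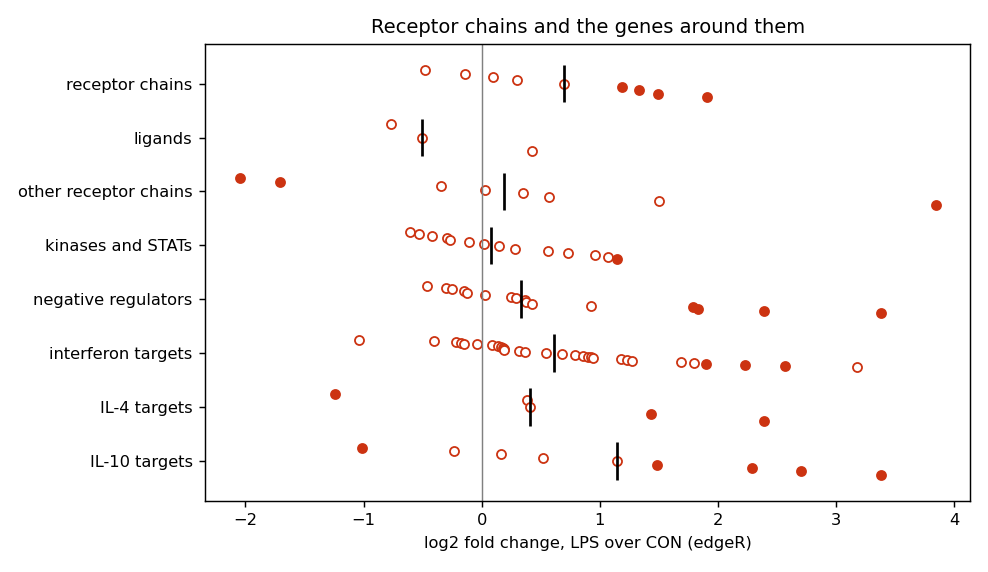
Log2 fold change of LPS over CON (edgeR, all 6 libraries, horizontal axis) for the 9 receptor chains and the tested genes of 7 lists around them, with filled points for an unadjusted p below 0.05 and a line at each list's median. The median is 0.69 for the chains, 0.08 for kinases and STATs, 0.61 for interferon targets and 1.14 for IL-10 targets, and no gene shown was called after adjustment.

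The genes whose pattern was most like that of IFNAR1 and IL4R are given as a description over 6 libraries, which share their depth and their place in 1 of 2 groups. Among 8612 genes with a symbol and a mean of at least 5 CPM, log2 CPM of TAPBP, STIP1 and HIGD1A was nearest to that of IFNAR1 (Pearson r of 0.996, 0.996 and 0.994), and that of TRIM27, RRP12 and UBN1 nearest to that of IL4R (0.996, 0.994 and 0.993). So many genes had an r above 0.9, 544 with IFNAR1 and 488 with IL4R, that the measure separates few of them. Their own log2 fold changes ranged from 0.24 (UBN1) to 1.19 (HIGD1A), so a like pattern did not mean a like size of difference.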

How the data were processed

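The authors deposited whole-number read counts, not normalized, for 31908 Ensembl pig genes, with exon coordinates and length, from the input fraction of 3 CON and 3 LPS liver libraries. The submitters' processing notes name cutadapt 1.9.3 and HISAT2 and list no pig build. The counting program, its strand setting and the annotation release were not given in the sources used here. The m6A-IP libraries were not analysed here. CON replicates 1 and 2 have 2 entries each in the labels and 1 column each in the table. A table of names paired 15029 identifiers with a symbol.

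The groups were compared with edgeR 4.0.16 in R 4.3.3 (filterByExpr minimum count 10, TMM, robust quasi-likelihood test). A gene was called at a Benjamini-Hochberg adjusted p below 0.05 over all 12774 tested genes and a fold above 1.5. The biological coefficient of variation was 0.397. Chain ratios were log2 of counts plus 0.5, compared by exact permutation (scipy 1.17.1). CPM are TMM-scaled. The same steps were tested on simulated data. Alternatives were RLE factors, total counts, no filter, a replicate block, leaving out each library, 10 counts or more in each library, limma 3.58.1 with voom, and DESeq2 1.42.0. No 2 libraries agreed within sampling noise.

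The receptor chains, the gene lists and the markers, written from general knowledge, were chosen with earlier results of these data known. All chains were named, with the genes lying between chains on chromosome 13, up to 4 genes per list with an unadjusted p below 0.05 in order of p (otherwise the 2 with the highest CPM), and the 3 genes most like IFNAR1 and IL4R. The same rule for chromosome X, where 355 genes lie between IL2RG and IL13RA1, was not carried out. Genes outside the rule (ligands below the filter, IL15, IL21R, IL22RA2, PTPN2, CXCL11, FCGR1A, TYK2, STAT2, HNF4A and LYVE1) were named after their values were seen.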

Additional observations from a re-analysis of the deposited data

How the results depend on the processing

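The receptor chains kept 0 calls lower in every alternative and 0 calls higher in all but 2 kinds, with 3 called without the filter on low counts and 0 to 4 when 1 library was left out (4 without LPS replicate 2). Over all 14 settings the log2 fold change ranged from 0.59 to 1.62 for IFNAR1, 0.76 to 1.69 for IFNGR2, 1.01 to 1.99 for IL4R and 0.94 to 2.39 for IL10RB. Of the 9 chains and the genes that the naming rule took from the lists, 4 turned sign with 1 library left out, none of them called. IL2RG ranged from -0.41 (without LPS replicate 3) to 0.31 and was -0.12 without CON replicate 1, IL10RA from -0.36 to 0.19 (without LPS replicate 1) and was 0.08 without CON replicate 3, IL7 from -0.97 to 0.19 (without CON replicate 1) and IL10 from -0.06 (without LPS replicate 3) to 1.02. IL2RG was also -0.12 with scaling to total counts. The direction of the 5 chain ratios held in each alternative run.

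Over all genes, 7 were called higher and 0 lower. Higher calls were 11 with total counts, 536 without the filter, 0 with 10 counts in every library, 275 with DESeq2, 4 with limma-voom and 0 to 512 when 1 library was left out. Lower calls were 1 with RLE factors, 1 with total counts, 349 without the filter, 143 with DESeq2, 2 with limma-voom and 0 to 470 when 1 library was left out. Among the fits that leave 1 library out, the most calls in each direction came without LPS replicate 2. Apart from fewer samples in those fits, the cause was not tested. Deviations from the group means in samples with the same replicate number had an r of -0.239, 0.219 and 0.0289 for numbers 1, 2 and 3. With 3 libraries per group these values cannot show whether samples of 1 number share more than the number, which was not tested. With the replicate number as a block, 42 genes were called higher and 9 lower, 0 of 9 chains were called, and the log2 fold changes were 0.92 for IFNAR1, 1.15 for IFNGR2, 1.32 for IL4R and 1.5 for IL10RB. For the chain ratios with the block, the smallest p that sign flips can give is 0.25. IL10RB, with 48 to 135 counts in 5 of 6 libraries, is among the chains that depth limits most.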
